A study of Mus musculus with 51 samples.

Results

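The mitosis genes are 35 mouse genes whose products carry a cell through entry into mitosis, spindle assembly, chromosome segregation and division of the cytoplasm. They were chosen by name from textbook roles, but with earlier results of these data known, so the list is not independent of the data. Each gene was read through the brightest probe set annotated to its symbol alone. Ccnb1, the cyclin B1 gene, had no such probe set in the annotation used and was not analysed here, which left 34 genes among the 15150 tested, of 18192 genes with a probe set. Levels are given as log2 of array intensity with intensities under 32 set to 32, so that a level of 5 is the floor. Levels of different genes are not comparable, because probe sets differ in brightness.

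The study profiled a mouse model of mammary cancer in which Cre under the Wap promoter, active in mammary epithelium in pregnancy and lactation, switches on a conditional Etv6-NTRK3 knockin allele. A Rosa-Stop-lacZ reporter marks the same cells, and lacZ-positive cells were sorted from some lesions. The 50 replicates fell into 6 groups. Sorted transplanted tumors (7 replicates from 5 donor mice) were primary tumors grown in RAG2-/- recipients, which lack mature T and B cells, for 1 to 4 passages. Sorted primary tumors (8 from 6 mice) and sorted hyperplasia (4 from 4 mice) held lacZ-positive cells of knockin animals. Unsorted transplanted tumors (4 from 2 donor mice, also in RAG2-/- recipients), unsorted primary tumors (22 from 14 mice, 1 of them on 2 arrays that were averaged) and unsorted glands of wild-type mice (5 from 5 mice) were whole tissue. Ages, and the reproductive state of the wild-type mice, are not given in the sources used here. Several tumors came from 1 mouse, so mouse of origin was a random block in the fit.

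Cdk1 with its cyclins drives entry into mitosis, and the anaphase-promoting complex ends it by marking cyclin B and securin for destruction. Transcripts of these genes rise in G2 and fall after division, so that in tissue their level follows the share of cells in late cycle as well as the RNA per cell, and in bulk samples fewer cells of a type and less RNA per cell cannot be told apart. Many promoters of this class carry a cell cycle genes homology region, read by the DREAM and MMB-FOXM1 complexes, and CCAAT boxes bound by NF-Y. Both elements are background knowledge, and no binding was measured in these samples.

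The promoters of the first-named gene of each role, where the table had one, show how these letters lie around the transcription start, and those of Cenpf and Kif4 were added after their values were seen because both departed from the rest. They are RefSeq sequences of GRCm38.p6, from 120 bases before to 45 bases after the first listed start of the gene, 5′ to 3′ on the gene's strand. Capitals mark TTTGAA, the core of the homology region, and CCAAT, each also where it reads on the opposite strand (TTCAAA and ATTGG). Cdk1 lies at chr10:69352868-69353032 (minus strand), Ccnb2 at chr9:70421510-70421674 (minus strand) and Ube2c at chr2:164769809-164769973 (plus strand).
Cdk1: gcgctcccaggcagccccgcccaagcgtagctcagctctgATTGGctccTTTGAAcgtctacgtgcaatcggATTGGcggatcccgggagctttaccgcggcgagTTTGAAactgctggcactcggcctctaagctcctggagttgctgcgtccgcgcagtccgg
Ccnb2: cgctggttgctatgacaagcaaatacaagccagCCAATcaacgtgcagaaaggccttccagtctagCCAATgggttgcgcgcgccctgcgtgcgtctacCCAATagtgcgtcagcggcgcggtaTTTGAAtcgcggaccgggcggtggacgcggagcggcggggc
Ube2c: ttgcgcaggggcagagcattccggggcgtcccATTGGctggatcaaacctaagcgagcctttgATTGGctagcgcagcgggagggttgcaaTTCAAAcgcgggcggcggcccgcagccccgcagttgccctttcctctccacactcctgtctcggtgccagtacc
Birc5 lies at chr11:117849117-117849281 (plus strand), Nusap1 at chr2:119618178-119618342 (plus strand), Ect2 at chr3:27153834-27153998 (minus strand) and Mki67 at chr7:135716335-135716499 (minus strand).
Birc5: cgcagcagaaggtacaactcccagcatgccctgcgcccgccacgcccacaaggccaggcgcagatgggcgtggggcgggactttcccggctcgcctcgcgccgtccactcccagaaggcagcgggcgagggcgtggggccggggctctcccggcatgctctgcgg
Nusap1: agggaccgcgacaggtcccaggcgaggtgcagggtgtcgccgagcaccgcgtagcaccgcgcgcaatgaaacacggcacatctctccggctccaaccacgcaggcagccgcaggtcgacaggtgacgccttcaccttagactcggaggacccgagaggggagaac
Ect2: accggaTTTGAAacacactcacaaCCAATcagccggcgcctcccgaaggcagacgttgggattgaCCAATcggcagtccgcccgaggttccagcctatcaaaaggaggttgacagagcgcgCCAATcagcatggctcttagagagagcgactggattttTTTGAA
Mki67: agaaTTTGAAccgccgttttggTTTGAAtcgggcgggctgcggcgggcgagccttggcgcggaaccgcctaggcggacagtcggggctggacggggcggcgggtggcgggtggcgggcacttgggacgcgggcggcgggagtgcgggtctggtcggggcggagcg
Cenpf lies at chr1:189688042-189688206 (minus strand) and Kif4 at chrX:100625945-100626109 (plus strand).
Cenpf: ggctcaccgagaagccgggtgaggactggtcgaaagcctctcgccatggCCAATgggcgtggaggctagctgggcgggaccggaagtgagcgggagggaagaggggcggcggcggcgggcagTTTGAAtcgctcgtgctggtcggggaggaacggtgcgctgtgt
Kif4: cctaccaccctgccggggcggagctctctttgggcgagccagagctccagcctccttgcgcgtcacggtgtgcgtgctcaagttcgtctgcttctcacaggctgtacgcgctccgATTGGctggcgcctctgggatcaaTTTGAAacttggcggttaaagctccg

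Of the 35 genes, 30 had a promoter in the table, read over 250 bases before to 50 after the start. TTTGAA occurred in 21 of the 30 (70%), against 18.1% of 27025 promoters of all genes. CCAAT occurred in 23 (76.7%), against 37.9%, and both occurred in 19 (63.3%), against 7.12%. The TTTGAA lay within 50 bases of the start in 19 genes. In Ccnb2 a TTTGAA followed 3 CCAAT boxes that began 33 bases apart. Birc5 and Nusap1 held neither, and 5 genes in all held neither. Cenpf and Kif4 held both motifs, so these letters did not set them apart from genes that rose in tumors. Among 24 S phase genes with a promoter, CCAAT occurred in 16 and TTTGAA in 3. TTTGAA also occurred in 16 of 25 further spindle and cytokinesis genes and 13 of 31 further centromere and kinetochore genes. It occurred in 8 of 18 regulators of mitotic entry and 6 of 13 condensin and cohesin genes. Core subunits of the anaphase-promoting complex held it in 2 of 14, and inhibitors of the cycle in 2 of 11. Over these lists CCAAT ran from 28.6% in those subunits to 83.3% in the entry regulators. A match is a description of the letters and does not show a binding site.

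Defining markers were read for each array as the summed intensity of a fixed list. No luminal marker (Krt8, Krt18, Epcam and others, 10 in all) was at the floor throughout any group. The luminal sum ran from 10689 to 28550 in sorted primary tumors, from 19222 to 36899 in unsorted primary tumors and from 10728 to 28438 in wild-type glands. Sorted samples also gave signal for 8 macrophage markers (3423 to 26082 in sorted primary tumors and 13644 to 34043 in sorted hyperplasia, against 1876 to 9599 in unsorted primary tumors). Spike-in controls were bright on 2 of the 4 hyperplasia arrays (12.53 and 11.35, against 7.79 to 10.31 on all other arrays). The 3′ to 5′ log2 ratio of Actb, a sign of RNA integrity, reached 2.18 on the gland of mouse G340, against 0.07 to 1.19 on the arrays of the other groups.

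In unsorted primary tumors against wild-type glands, 32 of the 34 genes were higher, 1 was lower (Cenpf) and 1 did not pass (Kif4). Over all genes tested 29.4% were called higher and 21.5% lower in this comparison. The median difference of the 34 genes was 1.67 on the log2 scale, against 0.10 over all genes tested. Calls are limma moderated tests, adjusted by Benjamini-Hochberg over all genes and called under 0.05. Of the marker lists, 8 of 8 endothelial markers and 7 of 8 fibroblast markers were called lower in tumors, while 6 of 10 luminal markers were called higher. Endothelial sums were 446 to 1664 in tumors and 2591 to 5622 in glands, fibroblast sums 580 to 25947 in tumors and 17842 to 29083 in glands, and adipocyte sums 214 to 4519 in tumors and 2585 to 9071 in glands. The part of these cells in the differences was not tested.

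**Figure D1:**
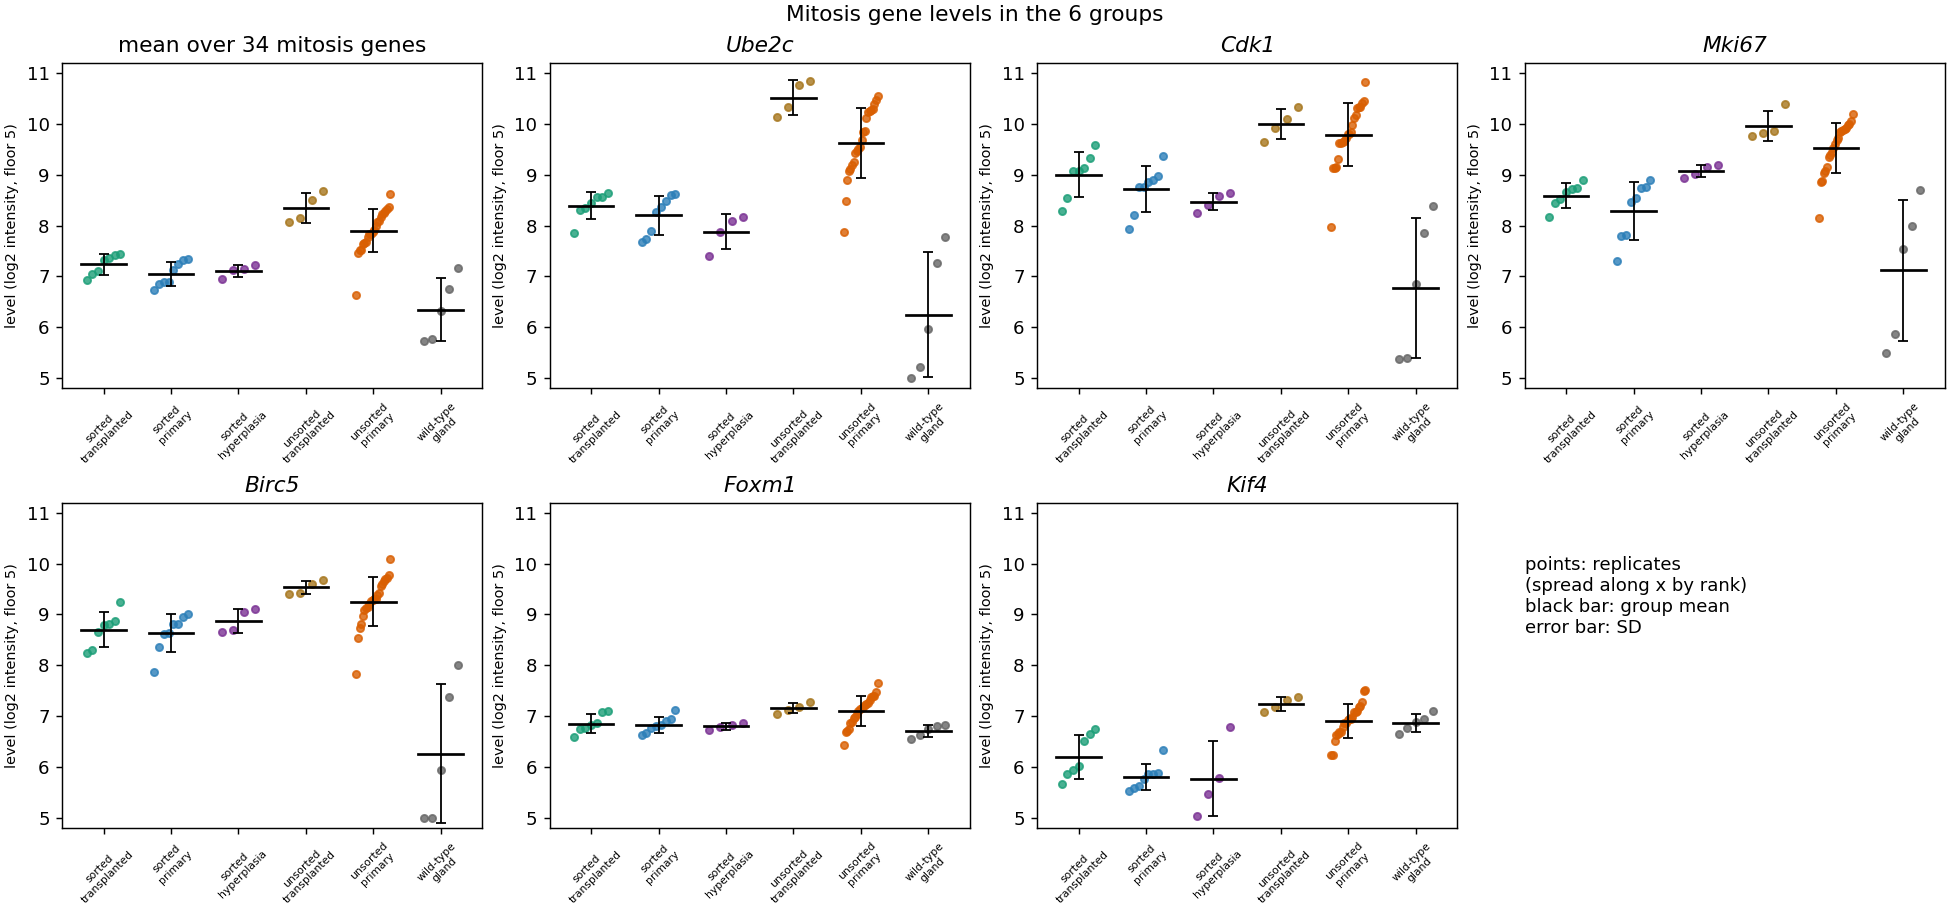
Log2 levels (y axis, floor 5) in the 6 groups (x axis) of the mean over 34 mitosis genes and of Ube2c, Cdk1, Mki67, Birc5, Foxm1 and Kif4. Points are replicates, black bars are group means and error bars are SD. The mean over the genes was 7.90 ± 0.42 in 22 unsorted primary tumors and 6.35 ± 0.62 in 5 wild-type glands, and the 3 sorted groups lay between 7.05 and 7.24.

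Among the mitotic kinases all 9 rose, with a median difference of 1.07. Cdk1, the kinase that triggers mitosis, had a lowest, median and highest level of 7.97, 9.81 and 10.83 in the 22 tumors, against 8.39, 5.40, 7.85, 6.84 and 5.38 in the 5 glands. All tumors but 1 (D14T2) were above the gland of mouse G337, which gave 8.39, and the groups overlapped through that pair. The fitted difference was 3.06 ± 0.32 (SE), or 8.34-fold (limma adjusted p = 1.65e-10). Aurka, which matures centrosomes and builds the spindle poles, ran from 6.52 to 8.70 in tumors and from 5.07 to 6.12 in glands, without overlap (2.37 ± 0.23). The remaining kinases were Aurkb of the chromosomal passenger complex (1.78), the checkpoint kinases Bub1 (1.40), Ttk (0.84) and Bub1b (0.87, a pseudokinase in the checkpoint complex), Melk (1.07), the centrosomal kinase Nek2 (1.00) and Plk1 (0.92), which acts from mitotic entry to cytokinesis.

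Both cyclins rose. Ccnb2, a B-type partner of Cdk1, had a lowest, median and highest level of 6.27, 8.56 and 9.54 in tumors, against 8.07, 5.00, 6.73, 5.87 and 5.00 in glands. Glands G360 and H235 were at the floor while G337 lay above 5 of the tumors (gland SD 1.30, n = 5). The difference was 2.42 ± 0.34 (adjusted p = 8.95e-08). Ccna2, the cyclin of S phase and G2, differed by 2.23 ± 0.31.

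The largest difference of any member was that of Ube2c, the ubiquitin-conjugating enzyme that works with the anaphase-promoting complex. Its lowest, median and highest levels were 7.87, 9.61 and 10.54 in tumors, against 7.78, 5.22, 7.27, 5.96 and 5.00 in glands. Every tumor was above every gland, by a margin of under 0.1 between the lowest tumor and the highest gland. The difference was 3.40 ± 0.32, or 10.5-fold (adjusted p = 9.86e-12). Cdc20, the activator of that complex, also did not overlap, at 9.0 to 10.41 in tumors and 7.48 to 8.77 in glands (1.88 ± 0.18). Mad2l1, the checkpoint protein that holds Cdc20 back, moved least of the 3. It had 7.92, 8.62 and 9.39 in tumors (lowest, median and highest), against 8.19, 7.93, 8.51, 8.47 and 7.36 in glands, with overlap (0.56 ± 0.18, adjusted p = 0.0095).

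At centromeres and kinetochores 6 of 7 genes rose. Birc5, or survivin, of the chromosomal passenger complex, had 7.83, 9.30 and 10.10 in tumors (lowest, median and highest), against 8.0, 5.00, 7.37, 5.94 and 5.00 in glands. The groups overlapped only in tumor D14T2, which lay under gland G337. The difference was 3.03 ± 0.29, or 8.18-fold (adjusted p = 7.99e-12). The others were Spc25 (2.09, no overlap), Nuf2 (1.55) and Ndc80 (1.14) of the complex that grips microtubules, Cenpa, the centromeric histone (2.09), and Cenpe, a kinetochore motor (1.85).

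Of 8 spindle and motor genes 7 rose, with a median of 1.32. Nusap1, which bundles spindle microtubules, had 6.84, 8.11 and 9.65 in tumors (lowest, median and highest), against 7.46, 5.55, 6.99, 6.57 and 5.10 in glands. Only tumors B459L and D14T2 fell below the highest gland, G337, and the difference was 1.87 ± 0.31 (adjusted p = 2.48e-06). Tpx2, an activator of Aurora A, rose without overlap (1.71 ± 0.20), and Kif23 (1.62), Kif20a (1.36), Kif2c (1.28), Kif11 (1.22) and the midzone protein Prc1 (0.92) rose with it. Ect2 and Racgap1, which together place and drive the contractile ring, both rose. Ect2 had 6.37, 8.02 and 8.71 in tumors (lowest, median and highest), against 7.37, 5.00, 7.31, 5.08 and 5.00 in glands (2.03 ± 0.32, adjusted p = 1.18e-06), and Racgap1 differed by 1.75 ± 0.20.

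Mki67, which coats mitotic chromosomes and is the usual marker of cycling cells, had 8.16, 9.65 and 10.20 in tumors (lowest, median and highest), against 8.69, 5.50, 7.99, 7.55 and 5.86 in glands. All tumors but D14T2 were above all glands, and the difference was 2.45 ± 0.30, or 5.45-fold (adjusted p = 6.63e-09). Top2a, the topoisomerase that untangles sister chromatids, differed by 2.39 ± 0.35 through the probe set used, while another probe set for it gave -0.42 and did not pass. Foxm1, the transcription factor of late-cycle genes, had 6.43, 7.14 and 7.65 in tumors (lowest, median and highest), against 6.81, 6.74, 6.55, 6.81 and 6.62 in glands. It overlapped and differed by only 0.40 ± 0.12 (adjusted p = 0.00604), although 2 fainter probe sets for it gave 0.50 and 0.89, both called.

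Altogether 5 genes, Ube2c, Cdc20, Aurka, Spc25 and Tpx2, were higher in every tumor than in any gland, against 6.70% of all genes, and 1, Cenpf, was lower in every tumor, against 7.56%. The remaining 28 overlapped. On at least 1 gland 14 genes sat at the floor, Kif20a on 4 of 5 glands, so the differences of those genes depend on the floor. With a floor of 100 the median of the 34 genes was 0.90.

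**Figure D2:**
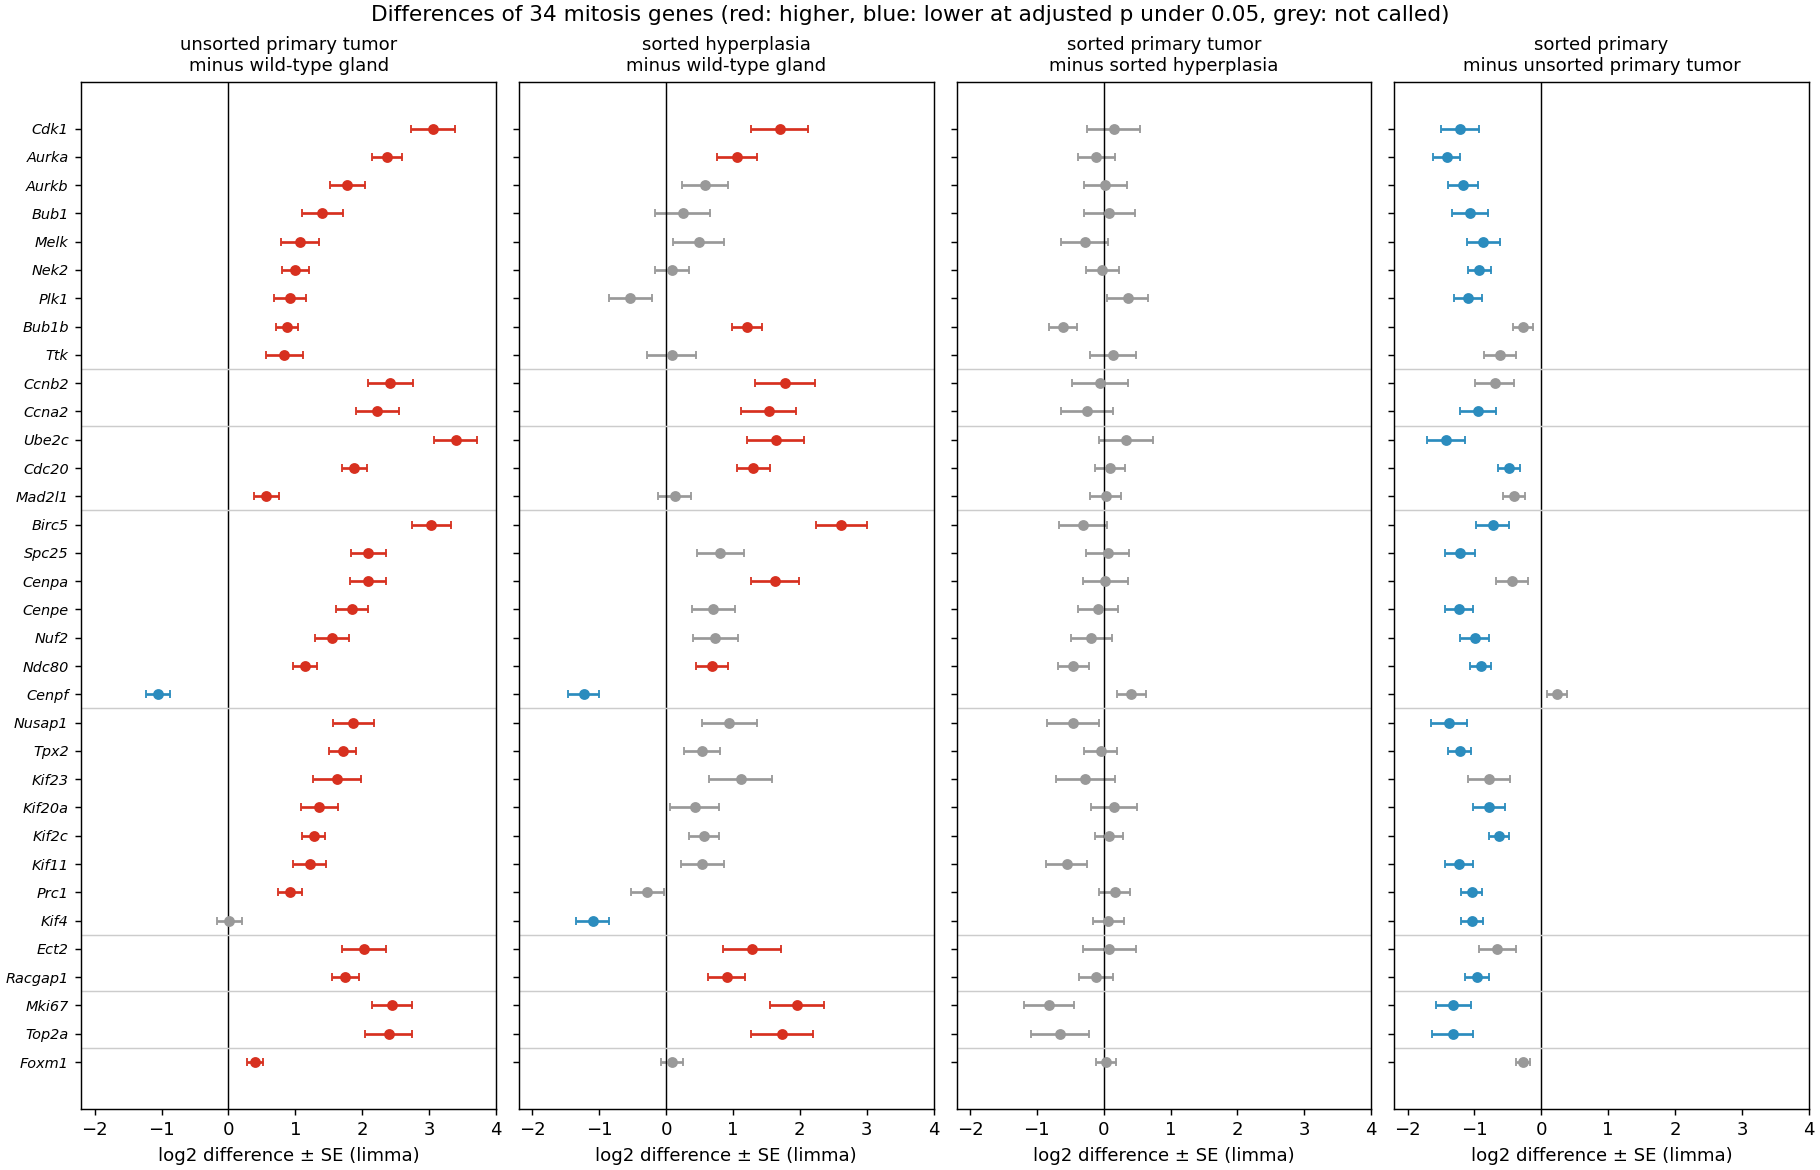
Fitted log2 differences (x axis, with SE) of 34 mitosis genes (y axis, by role) in 4 comparisons, coloured by limma call. Of the 34 genes, 32 were higher in unsorted primary tumors than in glands, 14 were higher in sorted hyperplasia than in glands, none passed between sorted primary tumors and sorted hyperplasia, and 25 were lower in sorted than in unsorted primary tumors.

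Cenpf, a large kinetochore protein, gave opposite answers by probe set. The brightest had a mean of 7.26 ± 0.16 in tumors and 8.31 ± 0.23 in glands and was called lower (-1.06 ± 0.18, adjusted p = 2.92e-06). The second had 7.70 ± 0.60 in tumors and 5.65 ± 0.91 in glands and was called higher (2.09 ± 0.31, adjusted p = 2.82e-07). The direction of Cenpf is therefore not settled by these arrays. Over all members, 35 further probe sets of 21 genes were measured, of which 19 were called higher in tumors, 5 lower and 11 not. The 5 lower ones belonged to Tpx2 (-0.76 and -0.62), Cenpa (-0.82), Nek2 (-0.63) and Kif2c (-0.55), genes whose brightest probe set was higher. Kif4, a chromokinesin, had 6.23, 6.93 and 7.51 in tumors (lowest, median and highest), against 6.89, 7.11, 6.76, 6.94 and 6.64 in glands. The glands lay inside the range of the tumors, and the difference was 0.01 ± 0.19 (adjusted p = 0.966).

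**Figure D3:**
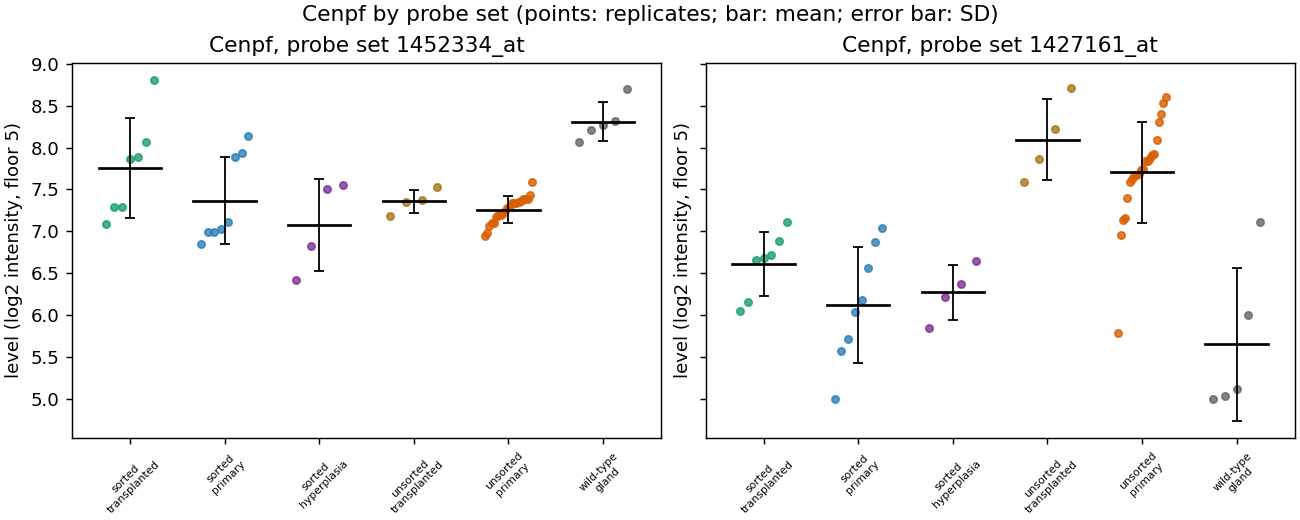
Log2 level of Cenpf (y axis) through 2 probe sets, the brightest on the left and the second on the right, in the 6 groups (x axis), with replicates as points, means as bars and SD as error bars. Through the brightest the glands were highest at 8.31, and through the second they were lowest at 5.65.

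Wild-type glands differed widely among themselves. The mean level over the 34 genes was 7.16 in the gland of mouse G337, 6.76 in G397, 6.31 in G340, 5.78 in G360 and 5.72 in H235, a wider spread (SD 0.62, n = 5) than among the 22 tumors (SD 0.42). In the same order of mice, luminal marker sums were 24913, 18770, 10728, 28438 and 17537, adipocyte sums 5677, 5842, 2585, 9071 and 7010, and endothelial sums 2989, 3672, 2591, 5622 and 4394. The 2 glands with the lowest means thus had the highest adipocyte and endothelial sums, and the part of those cells was not tested.

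Sorted hyperplasia against wild-type glands asked where the same genes stood before tumors form, with the same 5 glands as above. Of the 34 genes 14 were higher and 2 lower, with a median of 0.72 (all genes: 0.04), where 11% of all genes were called higher and 10.3% lower. Birc5 had 8.65, 8.70, 9.05 and 9.11 in the 4 hyperplasia samples, against 8.0, 5.00, 7.37, 5.94 and 5.00 in glands (2.62 ± 0.38, adjusted p = 3.78e-06). Every hyperplasia sample was above every gland for this gene. Mki67 had 9.15, 9.19, 9.01 and 8.94 in hyperplasia, against 8.69, 5.50, 7.99, 7.55 and 5.86 in glands (1.95 ± 0.40, adjusted p = 0.00041). Ccnb2 had 8.02, 7.88, 7.70 and 8.06 in hyperplasia, all above 4 of the glands and just below G337 at 8.07 (1.78 ± 0.45).

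Top2a had 9.34, 8.96, 8.61 and 8.52 in hyperplasia, against 8.59, 5.57, 8.36, 7.76 and 5.38 in glands (1.73 ± 0.46, and -0.66, not called, through its other probe set). Cdk1 had 8.26, 8.41, 8.58 and 8.64 in hyperplasia, against 8.39, 5.40, 7.85, 6.84 and 5.38 in glands (1.70 ± 0.43, adjusted p = 0.00337). Ube2c had 7.40, 8.10, 8.16 and 7.88 in hyperplasia, against 7.78, 5.22, 7.27, 5.96 and 5.00 in glands (1.64 ± 0.43). In all 3 genes the overlap came from gland G337 alone. Cenpa had 7.57, 8.15, 7.66 and 7.97 in hyperplasia, against 7.67, 5.10, 6.68, 6.49 and 5.12 in glands (1.63 ± 0.36). Ccna2 had 8.21, 8.57, 8.58 and 8.26 in hyperplasia, against 8.40, 5.20, 8.15, 7.44 and 5.17 in glands (1.53 ± 0.42). Again only G337 reached the hyperplasia range in both. Fainter probe sets of Cenpa gave -0.82, called lower, and -0.49, not called. The other probe set of Ccna2 gave 0.71, not called. The fit shared the spread of a gene over all groups, while the SD of Cdk1 was 1.38 in glands and 0.17 in hyperplasia. With only hyperplasia and glands fitted, limma did not call Cdk1 (adjusted p = 0.0753), Top2a (0.103), Ccna2 (0.142), Ube2c (0.0642), Ccnb2 (0.0538) or Ect2 (0.165). The other genes called in this comparison kept their calls in that fit. Foxm1 had 6.77, 6.83, 6.86 and 6.72 in hyperplasia, against 6.81, 6.74, 6.55, 6.81 and 6.62 in glands (0.09 ± 0.16, adjusted p = 0.754).

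The other genes called higher in hyperplasia were Cdc20 (1.30), Ect2 (1.29), Bub1b (1.21), Aurka (1.06), Racgap1 (0.90) and Ndc80 (0.69). Fainter probe sets were called higher for Cdc20 (1.01) and Bub1b (1.53). Others were not called for Cdc20 (0.65), Bub1b (0.03), Racgap1 (0.30) and Aurka (0.02). Among members not called, fainter probe sets were called higher for Kif11 (1.22) and Ttk (0.70) and lower for Tpx2 (-0.84) and Kif2c (-0.60). Kif4 was lower (-1.10 ± 0.25, adjusted p = 0.00127), at 5.04, 5.46, 6.79 and 5.78 in hyperplasia, against 6.64 to 7.11 in glands. The 5.04 and 5.46 came from the arrays with bright spike-ins. Kif4 was not called without those arrays (-0.58, limma adjusted p = 0.22), with spike-in signal as a covariate (-0.74) or with a floor of 100 (-0.19). Cenpf was lower through its brightest probe set (-1.23) and 0.62, not called, through the other. Groups did not overlap for 8 genes higher, against 9.27% of all genes, and for 1 lower, against 8.75%. Genotype, stage and sorting change together here and cannot be told apart. Of 8 macrophage markers 6 were called higher in hyperplasia (median 2.26), with sums of 13644 to 34043 in hyperplasia and 4651 to 12047 in glands. All 8 endothelial markers were called lower (median -1.72), as were 4 of 8 basal markers, while no B cell marker of 5 passed (sums of 948 to 18775 in hyperplasia and 1423 to 4106 in glands). No luminal marker of 10 and no fibroblast marker of 8 passed (medians -0.20 and -0.30). Luminal sums were 11271 to 23253 in hyperplasia and 10728 to 28438 in glands. Fibroblast sums were 14845 to 22348 in hyperplasia and 17842 to 29083 in glands. The part of these cells in the calls was not tested. Without the 2 arrays with bright spike-ins 8 genes were called higher, and the median difference was 0.80.

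Sorted primary tumors against sorted hyperplasia compared samples sorted for lacZ at successive stages, whose marker sums also differed. No mitosis gene passed in either direction, where 1.29% of all genes were called higher and 2.50% lower, and the median difference was 0.00. At an unadjusted p under 0.05 limma gave 2 genes, both lower, where 7.89% of all genes were higher and 9.66% lower. Mki67 had a lowest, median and highest level of 7.30, 8.50 and 8.89 in the 8 tumors, against 9.15, 9.19, 9.01 and 8.94 in hyperplasia. All 8 tumors lay below all 4 hyperplasia samples, which held for no other member and for 0.733% of all genes, while no member and 0.607% of all genes lay wholly above. The difference was -0.82 ± 0.37 (adjusted p = 0.23). Top2a had 6.96, 8.64 and 9.05 in tumors (lowest, median and highest), against 9.34, 8.96, 8.61 and 8.52 in hyperplasia, with overlap (-0.66 ± 0.43, adjusted p = 0.446). Its other probe set gave 0.34. Bub1b had 7.81, 8.15 and 8.54 in tumors (lowest, median and highest), against 9.44, 8.90, 8.39 and 8.32 in hyperplasia (-0.61 ± 0.21, adjusted p = 0.0833). It passed without hyperplasia replicate 3 (adjusted p = 0.0415) or replicate 4 (adjusted p = 0.0315). Those replicates, at 8.39 and 8.32, lay inside the range of the tumors. The higher values, 9.44 and 8.90, came from replicates 1 and 2, the arrays with bright spike-ins. The 9.34 and 8.96 of Top2a came from the same arrays.

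Cdk1 had 7.94, 8.81 and 9.36 in sorted primary tumors (lowest, median and highest), against 8.26, 8.41, 8.58 and 8.64 in hyperplasia, a difference of 0.15 ± 0.40. Foxm1 had 6.63, 6.81 and 7.12 in tumors and 6.77, 6.83, 6.86 and 6.72 in hyperplasia (0.04 ± 0.15). Among the tumors, those of mice F464 and F405 had the lowest Top2a (7.03 and 6.96), while the other 6 ran from 8.54 to 9.05. The macrophage sums of these 2 were 11914 and 23352, against 3423 to 26082 in the other 6. B cell sums were 258 to 1980 in sorted tumors and 948 to 18775 in hyperplasia, and all 5 B cell markers tested were called lower in tumors. Fibroblast sums were 1731 to 28614 in sorted tumors (median 3028) and 14845 to 22348 in hyperplasia (median 18714). Endothelial sums were 338 to 1093 in sorted tumors and 643 to 1723 in hyperplasia. Of these lists 3 of 8 fibroblast and 4 of 8 endothelial markers were called lower in tumors. The part of B cells, fibroblasts and endothelial cells in the Mki67, Top2a and Bub1b values was not tested.

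Sorted against unsorted primary tumors asked how the lacZ-positive cells compare with whole tumor. Of the 34 genes 25 were lower in sorted cells, none was higher and 9 did not pass, where 15.7% of all genes were called lower and 9.62% higher. The median difference was -0.95, against -0.05 over all genes. All 34 genes overlapped between the groups, where 0.323% of all genes lay wholly lower and 0.343% wholly higher. By role, lower calls were made for 7 of 9 kinases, 1 of 2 cyclins, 2 of 3 genes of the anaphase-promoting complex and checkpoint, 5 of 7 centromere and kinetochore genes, 7 of 8 spindle and motor genes, 1 of 2 cytokinesis genes, both chromosome genes and not Foxm1.

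Ube2c had 7.67, 8.32 and 8.63 in sorted tumors (lowest, median and highest), against 7.87, 9.61 and 10.54 in unsorted tumors. Of the 22 unsorted tumors 2 reached down into the sorted range, and the difference was -1.42 ± 0.28 (limma adjusted p = 0.000187), 2.68-fold lower. Aurka had 6.07, 6.40 and 6.95 in sorted tumors and 6.52, 7.77 and 8.70 in unsorted tumors (-1.41 ± 0.20, adjusted p = 7.78e-07). Nusap1 had 6.18, 6.97 and 7.26 in sorted tumors and 6.84, 8.11 and 9.65 in unsorted tumors (-1.38 ± 0.27).

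Mki67 had 7.30, 8.50 and 8.89 in sorted tumors and 8.16, 9.65 and 10.20 in unsorted tumors (-1.32 ± 0.26, adjusted p = 0.000217). Top2a had 6.96, 8.64 and 9.05 in sorted tumors and 7.73, 9.54 and 10.48 in unsorted tumors (-1.32 ± 0.30), with 0.11 through its other probe set. Cenpe had 5.39, 5.85 and 6.70 in sorted tumors and 5.91, 7.26 and 7.97 in unsorted tumors (-1.23 ± 0.21). In each of these 3 genes at most 1 unsorted tumor lay below the sorted median.

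Kif11, the motor that pushes spindle poles apart, had 5.14, 6.00 and 6.42 in sorted tumors and 5.87, 7.07 and 8.07 in unsorted tumors (-1.23 ± 0.21). Spc25 had 6.13, 6.52 and 7.03 in sorted tumors and 6.85, 7.64 and 9.20 in unsorted tumors (-1.22 ± 0.23). Other probe sets gave -0.91, called, and -0.32, not called, for Kif11, and 0.32, called higher, for Spc25. Over all members, 35 further probe sets were measured, of which 17 were called lower, 1 higher and 17 not. Cdk1 had 7.94, 8.81 and 9.36 in sorted tumors and 7.97, 9.81 and 10.83 in unsorted tumors (-1.21 ± 0.28, adjusted p = 0.00122). Kif4, which did not pass between tumors and glands, was among the lower genes (-1.04 ± 0.16).

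The 9 genes not called were Kif23 (-0.78), Ccnb2 (-0.70), Ect2 (-0.66), Ttk (-0.61), Cenpa (-0.44), Mad2l1 (-0.41), Bub1b (-0.28), Foxm1 (-0.27, adjusted p = 0.0528) and Cenpf (0.24, and -1.71 through its second probe set, which was called lower). Other probe sets were called lower for Foxm1 (-0.32 and -0.93) and Bub1b (-1.18 and -0.33), so that the call for these 2 genes, as for Cenpf, depended on the probe set. Foxm1 had 6.63, 6.81 and 7.12 in sorted tumors and 6.43, 7.14 and 7.65 in unsorted tumors. Macrophage sums were 3423 to 26082 in sorted tumors and 1876 to 9599 in unsorted tumors, and luminal sums 10689 to 28550 and 19222 to 36899 in the same order. Of these lists 5 of 8 macrophage markers were called higher and 6 of 10 luminal markers lower in sorted tumors. The part of these cells in the difference was not tested. Sorted and unsorted tumors came from different mice, so sorting and mouse cannot be told apart.

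Transplanted tumors were set against primary tumors within each kind of sample. In sorted cells no mitosis gene passed, nor did any of the 15150 genes (0.00%). No member reached an unadjusted p under 0.05 in limma, where 2.16% of all genes were higher and 1.84% lower. The median difference was 0.23 (all genes: 0.01), and 33 of 34 differences were above 0. The share above 0 over all genes was not counted. Kif11 had 5.62, 6.31 and 6.73 in transplanted tumors (lowest, median and highest), against 5.14, 6.00 and 6.42 in primary tumors (0.40 ± 0.24). Cdk1 had 8.29, 9.08 and 9.59 in transplanted tumors and 7.94, 8.81 and 9.36 in primary tumors (0.38 ± 0.32), and Cenpe differed by 0.38 ± 0.24. The groups overlapped in all 3. Mki67 had 8.17, 8.66 and 8.90 in transplanted tumors and 7.30, 8.50 and 8.89 in primary tumors (0.27 ± 0.30). Foxm1 had 6.59, 6.82 and 7.10 in transplanted tumors and 6.63, 6.81 and 7.12 in primary tumors (0.03 ± 0.12).

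In unsorted tissue no member passed either, where 0.752% of all genes were called higher and 0.191% lower. At an unadjusted p under 0.05 in limma 4 members were higher and none lower. The shares of all genes at that cut were 6.57% higher and 3.78% lower. The median was 0.30 (all genes: -0.0036), with 33 of 34 differences above 0. That share was not counted over all genes here either. Ube2c had 10.84, 10.77, 10.34 and 10.13 in the 4 transplanted tumors, against 7.87, 9.61 and 10.54 in primary tumors (0.81 ± 0.37, adjusted p = 0.415). Racgap1 had 8.49, 8.65, 8.12 and 8.0 in transplanted tumors, against 6.09, 7.37 and 8.15 in primary tumors (0.76 ± 0.24, adjusted p = 0.119), and was called without the mouse block (adjusted p = 0.00567) and with a floor of 100 (adjusted p = 0.0208). Aurka had 9.14, 9.04, 8.22 and 8.05, against 6.52, 7.77 and 8.70 (0.65 ± 0.26). The 2 transplants of donor CR90 were above those of donor CR115 in these 3 genes, and both donors rest on 2 arrays each. Mki67 had 9.86, 10.39, 9.82 and 9.76 in transplanted tumors, against 8.16, 9.65 and 10.20 in primary tumors (0.30 ± 0.35). Cdk1 had 10.10, 10.34, 9.92 and 9.65, against 7.97, 9.81 and 10.83 (0.12 ± 0.37), and Foxm1 had 7.28, 7.11, 7.04 and 7.18, against 6.43, 7.14 and 7.65 (0.09 ± 0.14). Apart from Mki67 in CR90-2, these values lay inside the range of the primary tumors. The difference between the transplant effects in sorted and unsorted samples was called for no member (median -0.07). Over all genes 0.0132% were called higher and 0.0726% lower. For 1 member, Ndc80, it was lower at an unadjusted p under 0.05 in limma, where 3.09% of all genes were higher and 4.78% lower.

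A transplant could be set beside its own primary tumor in the same kind of sample for CR115 and F433T4. The mean over the 34 genes was 8.15 and 8.06 in the transplants of CR115 and 8.22 in the primary tumor. It was 7.37 in the transplant of F433T4 and 7.13 in that tumor. The 2 arrays of the CR115 primary tumor differed by a median of 0.13 over the members, and by 0.62 at most. Across passages the mean was 7.45 and 7.37 at passage 1, 7.42, 7.11 and 7.06 at passage 2, 7.32 at passage 3 and 6.93 at passage 4, with 1 array each at the last passages.

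Single unsorted primary tumors differed in their mean level over the genes. The mean over the 34 genes ran from 6.63 in tumor D14T2 to 8.62 in C117T3, with a median of 7.90. D14T2 was the lowest of the 22 tumors in 30 of 34 genes, while C117T3 was highest in 17 and E93T1 in 9. The other tumor of mouse D14 had a mean of 7.68. Fibroblast marker sums were 10576 in D14T2 and 4847 in D14T1, and luminal sums were 24209 and 28144 in the same order. Tumors B459L and C117T6 had higher fibroblast sums, 23430 and 25947, with means over the genes of 7.53 and 7.63.

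**Figure D4:**
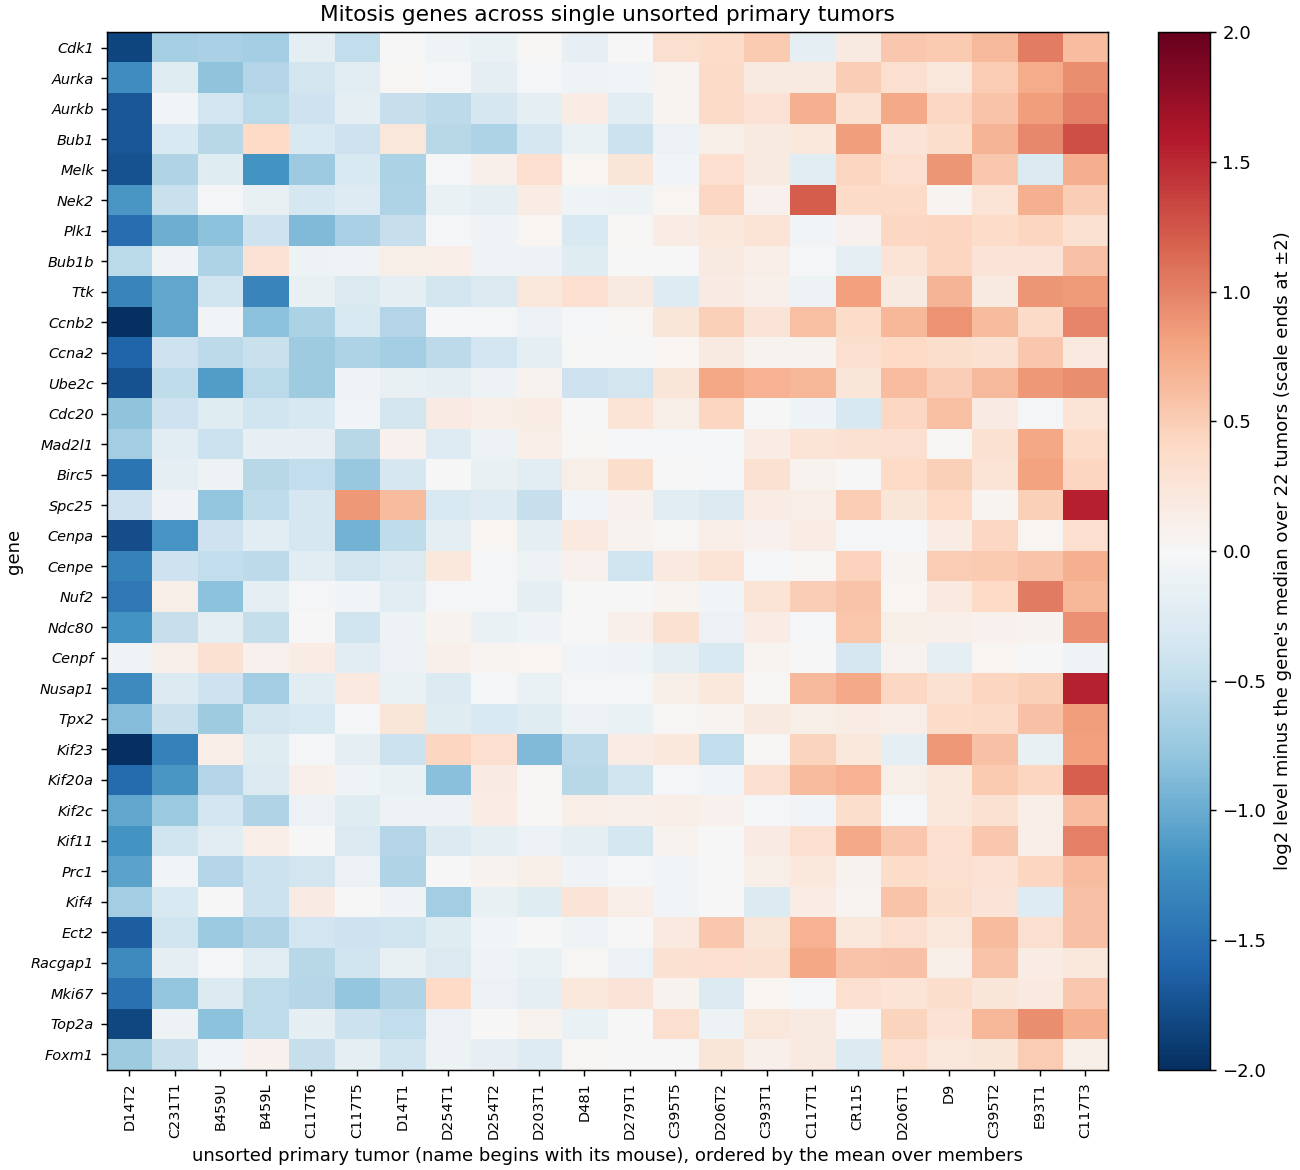
Level of 34 mitosis genes (rows) in 22 unsorted primary tumors (columns, ordered by the mean over the genes), as log2 difference from the gene's median over the tumors. D14T2, with a mean of 6.63, is lowest in 30 genes, and C117T3, with a mean of 8.62, is highest in 17.

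Pooled over mice, tumors of the same mouse differed about as much as tumors at large, but this did not hold in each mouse. Over 14 tumors of 6 mice the SD within a mouse was 0.40, against 0.42 over all 22 tumors. The ratio was 0.95, with a jackknife SE of 0.15. The pooled SD came mainly from mice C117 and D14. Tumors of mouse C117 had means of 8.62, 8.18, 7.66 and 7.63, and those of D14 had 7.68 and 6.63. Pairs from the other mice lay closer together. Their means were 7.53 and 7.52 in B459, 7.78 and 7.84 in D254, 8.24 and 8.06 in D206, and 8.329 and 7.997 in C395. The range over tumors was widest for Ccnb2 (3.26) and narrowest for Cenpf (0.65 through its brightest probe set). Through its second probe set Cenpf ran from 5.79 to 8.60. Cdc20 varied least within a mouse relative to all tumors (SD 0.19 against 0.33).

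Mki67 was set against the other 33 genes over the mean levels of 14 mice. Pearson's r was positive for 32 genes, with a median of 0.70, and passed a permutation test adjusted over the 33 genes for 29. Spearman's rho passed for 10, all also by r. Genes outside the members were not set against Mki67, so no share over all genes stands beside these counts. They do not show a relation particular to the mitosis genes. The closest were Cenpa (r = 0.936, rho = 0.763, adjusted permutation p = 0.000577 and 0.0177), Kif2c (r = 0.914, rho = 0.881, adjusted permutation p = 0.000577 and 0.0033) and Ccnb2 (r = 0.898, rho = 0.675, adjusted permutation p = 0.000577 and 0.0376). Without mice D14 and C231, the farthest from the median in Mki67, the median r was 0.51 and r was 0.78, 0.81 and 0.62 for these 3 genes. Of the 29 genes that passed by r, 13 then had an r under 0.5, between 0.10 for Nek2 and 0.48 for Nusap1 and Top2a, so the strength of those relations depended on these 2 mice. Cenpf, through its brightest probe set, was the only gene with a negative r (-0.42, adjusted permutation p = 0.148), and its r was -0.70 without the 2 mice. The second probe set of Cenpf was not set against Mki67. Among the unsorted primary tumors it was lowest in D14T2 (5.79) and highest in C117T3 (8.60).

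Other genes of the cell cycle were counted from lists by role. In tumors against glands, where 29.4% of all genes were called higher and 21.5% lower, 25 of 35 further centromere and kinetochore genes were higher and 3 lower. Cdca8, of the passenger complex, differed by 2.41 ± 0.33, Spc24 by 1.86 ± 0.33 and Incenp by 1.83 ± 0.28. Of 25 further spindle and cytokinesis genes 19 were higher and 2 lower, led by Kif22 (2.26 ± 0.26), Anln (2.07 ± 0.42) and Psrc1 (2.04 ± 0.24). Of 25 regulators of mitotic entry 18 were higher and 1 lower, led by Cdca3 (2.45), Pbk (1.96) and Cdc25b (1.82), a phosphatase that activates Cdk1.

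Of 17 condensin and cohesin genes 8 were higher and 2 lower in tumors, with Ncapg at 1.96, Espl1, which encodes separase, at 1.67 and Smc2 at 1.49. Of 28 S phase genes 20 were higher and none lower, with Tk1 at 2.43, Uhrf1 at 2.28 and Rrm2 at 2.18. Core subunits of the anaphase-promoting complex gave 5 higher and 1 lower of 15, a share higher near that of all genes, among them Anapc15 (0.99), Anapc5 (0.89) and Anapc16 (-0.93). Of 15 inhibitors of the cycle 2 were higher and 7 lower, with Btg2 at -1.85, Cdkn1c at -1.70 and Gas1 at -1.55.

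In sorted against unsorted primary tumors, where 15.7% of all genes were called lower and 9.62% higher, 20 of the 35 further centromere and kinetochore genes were lower and 1 higher, with Sgo2a and Sgo1, protectors of sister cohesion, both at -1.19. Lower calls were also made for 13 of 25 spindle genes, 13 of 25 entry regulators (Ccnf at -1.24, Fbxo5 at -1.05), 9 of 17 condensin and cohesin genes (Ncapg at -1.13) and 11 of 28 S phase genes (Tk1 at -1.30). Among the inhibitors 4 were lower and 3 higher in sorted tumors, with Btg2 at 2.14 ± 0.36 and Cdkn1a, the p21 gene, at 1.09 ± 0.30. Psrc1, a microtubule-associated spindle protein, was the single gene of these lists called between sorted primary tumors and sorted hyperplasia (2.23 ± 0.30, adjusted p = 1.35e-06), at 8.99 ± 0.56 (SD, n = 8) in tumors and 6.76 ± 0.71 (SD, n = 4) in hyperplasia.

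In hyperplasia against glands, where 11% of all genes were called higher and 10.3% lower, the same lists gave 7 centromere and kinetochore genes higher and 2 lower of 35, 8 spindle genes higher of 25, 6 condensin and cohesin genes higher of 17, 7 entry regulators higher of 25 and 12 S phase genes higher of 28. Cdca8 differed by 2.33 ± 0.44, Incenp by 2.23 ± 0.37, Rrm2 by 2.04 ± 0.45 and Cdca3 by 1.99 ± 0.38. No core subunit of the anaphase-promoting complex passed, and 2 of 15 inhibitors were lower, E2f5 (-1.26) and Cdkn2c (-0.64). Between unsorted transplanted and primary tumors 3 genes of the lists passed, Kifc1, a minus-end spindle motor, at 0.60 ± 0.12, Cdc25b at 1.11 ± 0.24 and Rb1, the retinoblastoma gene, at -1.48 ± 0.38. Between sorted transplanted and primary tumors none did.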

How the data were processed

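Total RNA was extracted with Trizol, cleaned on Promega columns and labelled as biotinylated cRNA by the standard Affymetrix protocol, per the labels. The authors deposited 1 intensity per probe set on a linear scale for 51 arrays and 45101 probe sets; the software that made them, and their scaling, are not given in the sources used here. Intensities under 32 (37.4% of values) were set to 32 and log2 taken, which is the only transformation of the deposited values. The 64 control probe sets, and 1 probe set with 2 extreme values, were left out of tests. Probe sets with 1 symbol numbered 34944, with several 932 and with none 9160, by the platform annotation. The brightest probe set stood for a gene, and genes above the 40th percentile on at least 4 arrays were tested. The 2 arrays of tumor CR115 were averaged. limma 3.58.1 in R 4.3.3 fitted the 6 groups with mouse as a random block (correlation 0.358), checked on simulated data, and p-values were adjusted by Benjamini-Hochberg over 15150 genes. Correlations used 100000 permutations in Python 3.11.15 with numpy 2.4.6 and scipy 1.17.1. Tables used pandas 2.3.3 and figures matplotlib 3.10.9.

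The members and all lists were chosen with earlier results of these data known. Named were Mki67, Cdk1 and Foxm1, the gene with the largest difference in each role and the 3 smallest between tumors and glands, and in other comparisons the 3 largest and up to 8 called genes. Of the other lists, up to 3 called genes were named for tumors against glands and 2 elsewhere. Promoters were the first RefSeq GRCm38.p6 entry per symbol. Alternatives changed the floor, normalization, probe-set choice, filter, block, variance model, a spike-in covariate and single replicates; the split by Gapdh ratio was chosen after seeing the data. Array number limits precision, and p-values measure the spread between these samples. In the limma fit that spread was shared by the 6 groups for each gene.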

Additional observations from a re-analysis of the deposited data

Results flagged for a closer look

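Of 175 sets of values (34 genes and their mean, in each of the 5 groups of 4 to 8 replicates), 10 held 1 value far from the rest of its group by Dixon's test, where chance gives about 1 in 20. Among wild-type glands, that of mouse G337 stood high in Cdc20 at 8.77, in Kif20a at 5.59 and in Ndc80 at 5.29. Kif20a sat at the floor on the other 4 glands, so any value above the floor would have been flagged. Ndc80 sat at the floor on 3 of the 5 glands, so its flag also depends on the floor. Among unsorted transplanted tumors, CR90-2 stood high in Mki67 at 10.39 and in Top2a at 10.15, and CR115-4 stood low in Nek2 at 7.03. Among sorted primary tumors, F405T stood low in Ect2 at 5.73 and F464T high in Kif4 at 6.33. Sorted hyperplasia F493H stood low in Tpx2 at 6.47, and the sorted passage 4 transplant D279T1P4 stood low in Cenpa at 7.23. No cause was tested.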

How the results depend on the processing

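In tumors against glands the count of genes called higher stayed between 27 and 32 under the alternatives tried, and the median difference fell to 0.90 with a floor of 100. The count called lower was 0 with the mean of all probe sets and 0 with the probe set of highest interquartile range, since that gene is Cenpf, whose difference was then 0.41 and 2.09. Top2a through the probe set of highest interquartile range gave -0.42 here, 0.34 for sorted tumors against hyperplasia, 0.11 for sorted against unsorted tumors and -0.66 for hyperplasia against glands. That choice also gave Cenpf -1.71 (sorted against unsorted) and 0.62 (hyperplasia against glands), and Foxm1 -0.11 in the hyperplasia comparison, while the probe-set mean gave Cenpf -0.52 between sorted and unsorted tumors. For hyperplasia against glands, 9 genes were higher with only those 2 groups fitted (median difference 0.72, as before), 8 with a floor of 100 (0.11), 8 without hyperplasia replicates 1 and 2 (0.80), and 2 with sorted arrays of a Gapdh ratio above -0.1, which leaves 1 hyperplasia array (0.84). In that comparison 1 gene was lower with a floor of 100, the probe-set mean, the probe set of highest interquartile range, the spike-in covariate, and without hyperplasia replicates 1 and 2. With the Gapdh ratio above -0.1, Top2a between sorted tumors and hyperplasia was 0.12 and Cenpf between sorted and unsorted tumors -0.22; with it below -0.1, 1 gene was higher between sorted and unsorted tumors and Foxm1 in sorted transplants was -0.12. With the spike-in covariate Cdk1 was -0.20 between sorted tumors and hyperplasia and -0.021 between unsorted transplants and primary tumors. For unsorted transplants 3 genes were higher without the mouse block and 1 with a floor of 100. Leaving out 1 replicate at a time gave 0 to 1 genes lower between sorted tumors and hyperplasia (1 without hyperplasia replicate 3 or 4), and Kif4 between tumors and glands ran from -0.046 to 0.071, at -0.016 without gland replicate 3. Between sorted and unsorted tumors 18 to 29 genes were lower over the alternatives. The cause of these changes was not tested. Over all genes, calls between sorted tumors and hyperplasia numbered 573, against 887 without the block, 13 with only those groups fitted, 158 with the spike-in covariate, and 157 and 280 without hyperplasia replicate 1 or 2. For unsorted transplants they numbered 143, against 822 without the block, and for hyperplasia against glands 3229, against 1076 without replicates 1 and 2 together. No paired analysis was possible because the replicate numbers pair no samples. Within a kind of sample the labels match a tumor with its own transplant only for CR115 and F433T4, 1 tumor in each kind. Tumor D279T1 was unsorted and its transplants were sorted, so transplantation and sorting change together there. Samples of 1 mouse share its block in the fit. Dim genes are limited by the floor, and 4 hyperplasia samples, 4 unsorted transplants of 2 donors and 5 glands limit the precision of their comparisons.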
